A study of Arabidopsis thaliana with 6 samples.

Results

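Core histones H2A, H2B, H3 and H4 are the proteins around which nuclear DNA is wound. Their genes were followed here in roots of Arabidopsis thaliana (Col 0) that had or had not been exposed to gold. The members were chosen by locus, with earlier results of these data known. Of 40 listed core histone loci, 26 had a probe set under the probe-to-gene annotation used here. That annotation named 14347 genes in all, and no gene for 8730 of the 22746 probe sets tested. Those 26 loci were read by 23 probe sets, 10 of them named for 1 gene and 13 shared by several loci of the same histone type. None of the 13 listed H2A loci was assigned a probe set, nor was the H2B locus HTB9 (AT3G45980). The H2A.X, H2A.W and H2A.Z variants are therefore not covered. Such loci may still be read by probe sets that the annotation leaves unnamed.

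Gene expression was measured on 6 Affymetrix ATH1 arrays, 3 from jars of plants given 0.125 mM KAuCl4 (a soluble gold(III) salt, at pH 5.7) and 3 from jars without gold. Plants of both groups were 14 days old by the growth protocol and were grown in sealed sterile jars on liquid medium. Each jar held a raft of many plants, so an array averages over the roots of a jar. Exposure lasted 24 h by the sample labels but 6 h by the treatment protocol. For the jars without gold, the labels say untreated while the design text speaks of water. Neither point is settled here.

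In plant cells the bulk of new histone protein is made when DNA is copied, and the genes for H3.1, H4 and most H2A and H2B proteins are transcribed mainly in dividing cells. H3.1 is placed on new DNA by the CAF-1 chaperone behind the replication fork. The variant H3.3 differs from H3.1 at a few residues and is placed outside replication, largely over transcribed genes, so its genes are also active in cells that no longer divide. In roots, dividing cells are concentrated in the meristem at the tip. In plants, unlike in animals, mRNAs of the replication-linked histones carry poly(A) tails.

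The values are log signals, taken here to be of base 2, which the authors had centred for each probe set on the median of the 6 arrays. A value of 0 is therefore the middle of the 6 arrays and says nothing about how abundant a transcript is, and no 2 probe sets can be compared in level. Centring also makes the 2 middle arrays of a probe set mirror each other around 0, which is why equal values of opposite sign recur below. Because levels are absent, the labelled tissue could not be checked against root or shoot markers. Changes are gold minus no gold, from a limma fit across all 22746 probe sets, with the standard error (SE) of the fit for 3 arrays per group and Benjamini-Hochberg adjustment over all of them. A probe set passed when its adjusted p was under 0.05. Precision is limited by the number of jars, 3 per group.

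The array of no gold replicate 1 stood apart from the others. For actin, the centred log2 value of the 5' control minus that of the 3' control was -4.89 there and between -1.02 and 0.38 on every other array, and for GAPDH it was -2.55 there and between -0.21 and 0.028 elsewhere. Short genes read high on it: the median centred value was 0.20 for probe sets named for the shortest genes (spans up to 1402 bp) and 0.042 for the longest (from 3065 bp). Of the 26 histone loci, 24 are among those shortest genes, with a median span of 850.0 bp. For this reason histone results are given with and without that array. The part of its low 5' signal in them was not tested.

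With gold, probe sets of the replication-linked histones were mostly lower, while the changes of the variants ran from -0.70 to 0.28 on the log2 scale. Of 19 replication-linked probe sets, 10 fell and 9 did not pass, with a median change of -0.78 on the log2 scale. Of 4 variant probe sets, 1 fell and 3 did not pass, with a median change of 0.032. Over all probe sets 10.9% fell, 9.32% rose, 20.2% changed either way, and the median change was -0.045. No histone probe set rose in the limma fit, none did at an unadjusted p under 0.05 (13.6% of all probe sets did), and 1 variant did with array quality weights, where 23.9% of all probe sets rose. A fall across the roots of a jar can come from fewer dividing cells or from less histone mRNA in each, and bulk RNA cannot tell these apart. Several probe sets share their loci, so the 23 probe sets are not independent of each other. Since the loci were chosen with earlier results of these data known, these counts are not independent evidence.

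**Figure D1:**
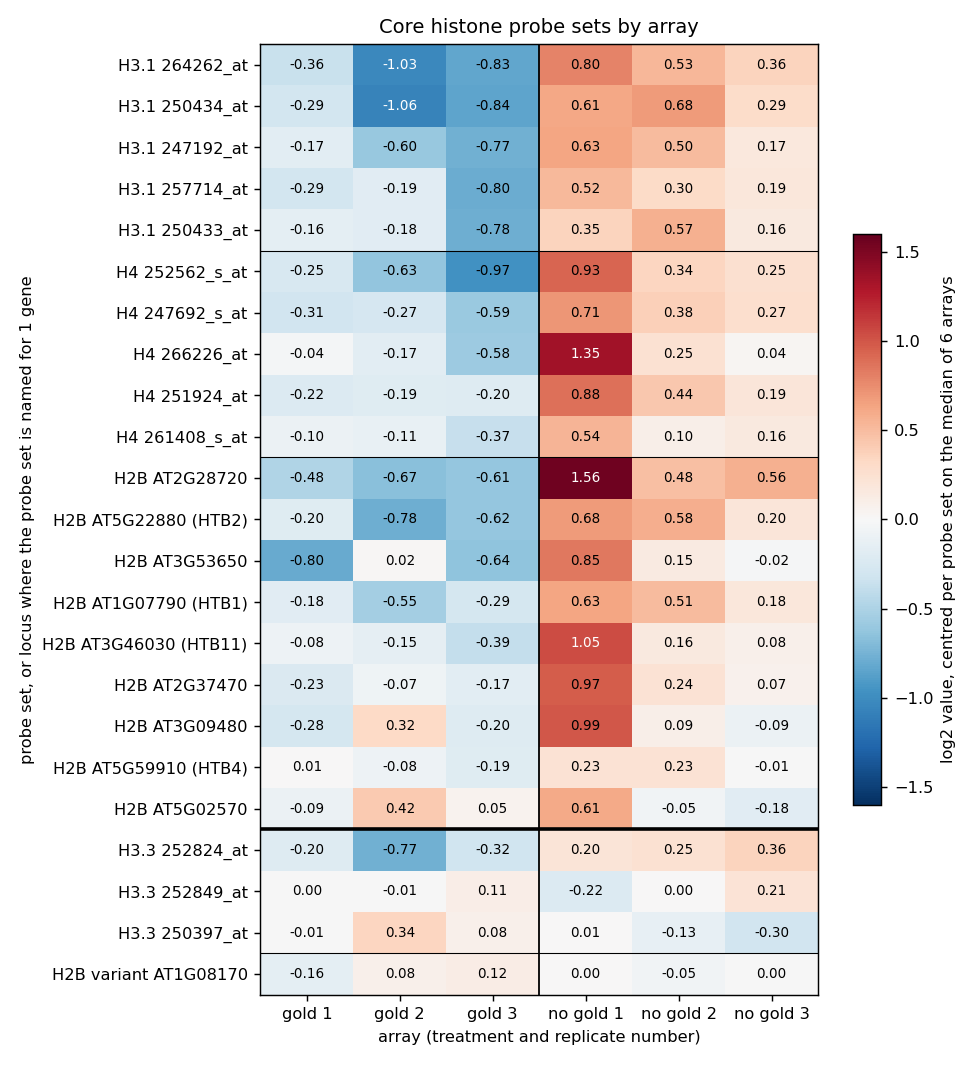
Centred log2 value of each of the 23 core histone probe sets (rows) on each of the 6 arrays (columns, gold at the left); red is above and blue below the median of the 6 arrays, and the thick line separates replication-linked probe sets (above) from variants (below). The 5 H3.1 and 5 H4 rows are below 0 on all 3 gold arrays and above 0 on all 3 no gold arrays. With this centring, that is the same as all gold arrays lying below all no gold arrays, seen in 21.6% of all probe sets. No gold replicate 1 has the highest value in 17 of the 19 replication-linked rows, compared with 33.1% of all probe sets.

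H3.1 transcripts were lower with gold on all 5 of their probe sets, 4 of which passed, where 10.9% of all probe sets fell. The 5 H3.1 loci (AT1G09200, AT3G27360, AT5G10390, AT5G10400 and AT5G65360) share 5 probe sets, each assigned to all 5 loci by the annotation. With this annotation alone a change cannot be given to 1 gene. Which gene each probe set was designed to read could not be told here. The largest fall was that of probe set 264262_at. Its centred log2 values were -0.36, -1.03 and -0.83 on the gold arrays, against 0.80, 0.53 and 0.36 on the no gold arrays. All 3 gold arrays were below all 3 no gold arrays (21.6% of all probe sets), with gold replicate 1 nearest to the no gold jars. Its change was -1.30 ± 0.22 (SE, n = 3 and 3; limma adjusted p = 0.00479), a gold to no gold ratio of 0.406.

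Probe set 250434_at followed almost the same course. It had centred log2 values of -0.29, -1.06 and -0.84 on the gold arrays, against 0.61, 0.68 and 0.29 on the no gold arrays. The groups were again apart, and the lowest array was gold replicate 2. The change was -1.26 ± 0.23 (SE, n = 3 and 3; limma adjusted p = 0.00731).

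The least lowered H3.1 probe set, 250433_at, missed the threshold by little. Its centred log2 values were -0.16, -0.18 and -0.78 on the gold arrays, against 0.35, 0.57 and 0.16 on the no gold arrays. Here gold replicate 3 alone was far below, while gold replicates 1 and 2 lay near the lowest no gold jar, and the change was -0.73 ± 0.22 (limma adjusted p = 0.0507). The remaining H3.1 probe sets, 247192_at at -0.95 ± 0.21 and 257714_at at -0.76 ± 0.20, fell (limma adjusted p = 0.0176 and 0.0349). H3.1 probe sets disagreed most on gold replicate 2: they read -1.06, -1.03 and -0.60 there in 3 cases and -0.19 and -0.18 in the others, whereas on gold replicate 3 all 5 lay between -0.84 and -0.77. Without no gold replicate 1, 3 of the 5 were lower, where 11.9% of all probe sets were. The median H3.1 change was then -0.85, against -0.95 with all arrays.

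H4, which pairs with H3 in the core of the nucleosome, was lowered on every probe set, though not every fall passed. The 8 H4 loci, HIS4 (AT2G28740) among them, share 5 probe sets, all assigned to all 8 loci. Probe set 252562_s_at changed most, with centred log2 values of -0.25, -0.63 and -0.97 on the gold arrays, against 0.93, 0.34 and 0.25 on the no gold arrays. Its change was -1.12 ± 0.25 (SE, n = 3 and 3; limma adjusted p = 0.0179). All gold arrays lay below all no gold arrays, but the no gold jars were themselves spread, with no gold replicate 1 far above the others.

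Probe set 247692_s_at was tighter, at -0.31, -0.27 and -0.59 on the gold arrays, against 0.71, 0.38 and 0.27 on the no gold arrays, and fell by 0.84 ± 0.18 (limma adjusted p = 0.0148). The smallest H4 change was that of 261408_s_at. It read -0.098, -0.11 and -0.37 on the gold arrays, against 0.54, 0.098 and 0.16 on the no gold arrays, a change of -0.46 ± 0.18 that did not pass (limma adjusted p = 0.123). The groups did not overlap there either, although the gap between them was narrow. Of the other H4 probe sets, 251924_at fell (-0.70 ± 0.20; limma adjusted p = 0.0424), and 266226_at, at -0.80 ± 0.34, did not pass (limma adjusted p = 0.153).

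For H4 the array of no gold replicate 1 carried much of the size. It was the highest array on all 5 H4 probe sets, and without it the median H4 change was -0.52, against -0.80 with all arrays. The same 3 probe sets were lower then, where 11.9% of all probe sets were. The H4 probe set 266226_at shows it most: no gold replicate 1 read 1.35 and the other no gold arrays 0.25 and 0.037, and without that array its change was -0.40.

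H2B is the class in which the annotation tells genes apart, since each of its 9 measured loci has a probe set of its own. H2B pairs with H2A on the outer face of the nucleosome. Of the 9 genes 3 fell, where 10.9% of all probe sets fell, and the change ran from -1.46 to 0.0024. AT2G28720 had the largest fall of all core histones in the fit of all 6 arrays, though not in every other fit. Its centred log2 values were -0.48, -0.67 and -0.61 on the gold arrays, against 1.56, 0.48 and 0.56 on the no gold arrays. The gold arrays lay close together and well below every no gold jar, and the change was -1.46 ± 0.29 (SE, n = 3 and 3; limma adjusted p = 0.00984). Without no gold replicate 1 it was -1.11 (limma adjusted p = 0.00277), a smaller fall than those of the H3.1 probe sets 250434_at (-1.22) and 264262_at (-1.18). With array quality weights it was -1.17, and these H3.1 probe sets were at -1.35 and -1.30.

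HTB2 (AT5G22880) had centred log2 values of -0.20, -0.78 and -0.62 on the gold arrays, against 0.68, 0.58 and 0.20 on the no gold arrays. Its course over the arrays resembled that of the H3.1 probe sets 264262_at and 250434_at, with gold replicate 2 lowest and gold replicate 1 highest among the gold arrays. It fell by 1.02 ± 0.21 (limma adjusted p = 0.0132). HTB1 (AT1G07790) fell as well, with a change of -0.78 ± 0.18 (limma adjusted p = 0.022).

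The other 6 H2B genes did not pass. AT3G53650 was at -0.80 ± 0.30, HTB11 (AT3G46030) at -0.63 ± 0.27, AT2G37470 at -0.58 ± 0.24, AT3G09480 at -0.39 ± 0.31 and HTB4 (AT5G59910) at -0.24 ± 0.15, with limma adjusted p between 0.105 and 0.468. The smallest change was that of AT5G02570, whose values were -0.090, 0.42 and 0.054 on the gold arrays, against 0.61, -0.054 and -0.18 on the no gold arrays, so that the groups overlapped (0.0024 ± 0.25; limma adjusted p = 0.997). The direction of that value was not stable: without no gold replicate 1 it was 0.24, and with other single arrays left out it reached -0.15.

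No gold replicate 1 was the highest of the 6 arrays for all 9 H2B genes. Without it the 9 genes had a median change of -0.32, against -0.63 with all arrays. Of them 3 fell, where 11.9% of all probe sets fell. Of those that had not passed with all arrays, HTB11 was then at -0.32, AT2G37470 at -0.31 and AT3G09480 at -0.057.

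**Figure D2:**
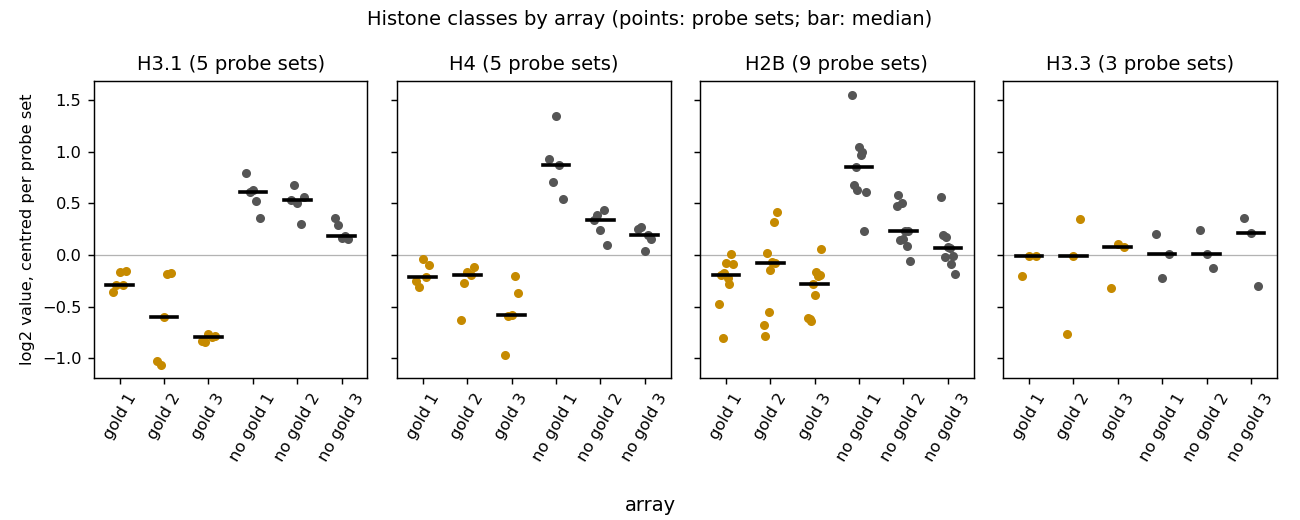
Centred log2 values of the probe sets of 4 histone classes (points) on each array, gold in ochre at the left and no gold in grey, with the class median as a bar. The H3.1 medians are -0.29, -0.60 and -0.80 on the gold arrays and 0.61, 0.53 and 0.19 on the no gold arrays, whereas the H3.3 medians lie between -0.012 and 0.21 on all 6.

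The variants gave a different picture, on few probe sets. The 3 H3.3 loci (AT4G40030, AT4G40040 and AT5G10980) share 3 probe sets, each assigned to all 3 loci. Probe set 252824_at fell: it read -0.20, -0.77 and -0.32 on the gold arrays, against 0.20, 0.25 and 0.36 on the no gold arrays, without overlap, and changed by -0.70 ± 0.19 (SE, n = 3 and 3; limma adjusted p = 0.0348). Unlike the replication-linked probe sets, it was highest on no gold replicate 3, and without no gold replicate 1 its change was -0.73.

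The other H3.3 probe sets overlapped between the groups. Probe set 252849_at read -0.0050, -0.012 and 0.11 on the gold arrays, against -0.22, 0.0050 and 0.21 on the no gold arrays (0.032 ± 0.17; limma adjusted p = 0.937). Probe set 250397_at read -0.0063, 0.34 and 0.079 on the gold arrays, against 0.0063, -0.13 and -0.30 on the no gold arrays (0.28 ± 0.17; limma adjusted p = 0.319). The H3.3 probe sets thus split, with 1 lower and 2 that did not pass, where 10.9% of all probe sets fell. The annotation does not say which of the 3 genes each H3.3 probe set reads. The variant H2B gene AT1G08170 had centred log2 values of -0.16, 0.078 and 0.12 on the gold arrays, against 0.0049, -0.051 and -0.0049 on the no gold arrays. Its change was 0.032 ± 0.15 (limma adjusted p = 0.929). Since levels are not given, it is not known whether its transcript was above background in these roots.

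**Figure D3:**
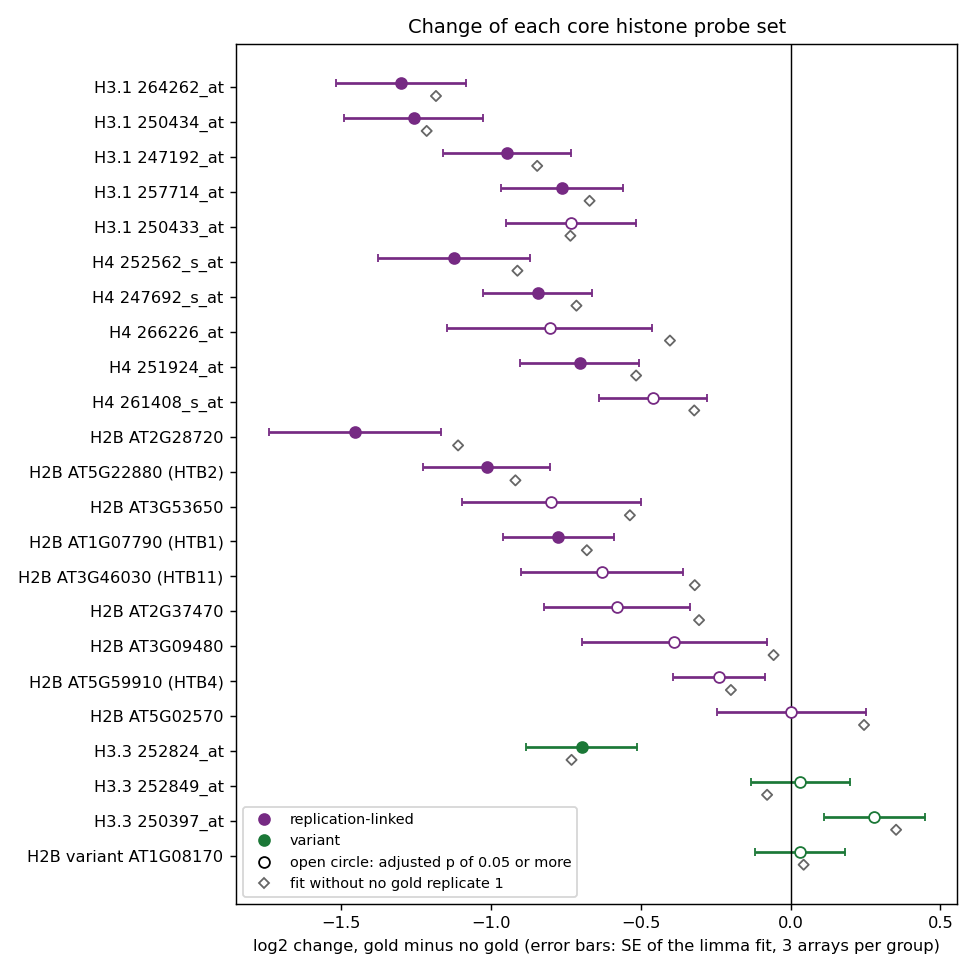
Log2 change, gold minus no gold, of each core histone probe set with the SE of the limma fit (circles; filled where the adjusted p was under 0.05), and the change without the array of no gold replicate 1 (diamonds). Replication-linked probe sets run from -1.46 to 0.0024 and variants from -0.70 to 0.28; most diamonds of H4 and H2B lie nearer to 0 than the circles.

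Set side by side within each array, the medians of the replication-linked and variant classes parted by treatment. The median of the H3.1 probe sets minus the median of the H3.3 probe sets was -0.28, -0.59 and -0.88 on the gold arrays, against 0.61, 0.53 and -0.026 on the no gold arrays. The same difference for all 19 replication-linked against all 4 variant probe sets was -0.14, -0.22 and -0.69 on the gold arrays, against 0.71, 0.36 and 0.061 on the no gold arrays. Neither difference overlapped between the groups, but no gold replicate 3 came close to gold replicate 1 in both. The medians hide the H3.3 probe set 252824_at, which changed by -0.70, near the -0.73 of H3.1 250433_at. Both differences were largest on no gold replicate 1, where short genes read high. All 5 H3.1 loci but 1 of 3 H3.3 loci are among the shortest genes (spans up to 1402 bp). The part of this in the differences was not tested. These differences describe the chosen probe sets, and the classes were not tested against each other. As the values are centred, they show unequal change and not the ratio of the proteins or of their mRNAs.

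Among the 19 replication-linked probe sets, all 3 gold arrays lay below all 3 no gold arrays in 15, compared with 21.6% of all probe sets. Among the 4 variant probe sets this held for 1. Counted against no gold replicates 2 and 3 alone, the gold arrays were below in 15 of 19 again, compared with 30.7% of all probe sets. No gold replicate 1 was the highest array in 17 of the 19, compared with 33.1% of all probe sets, and in none of the 4 variant probe sets. No gold replicate 3 was the lowest of the no gold jars in 17 of the 19 (31.6% of all probe sets), and gold replicate 1 the highest of the gold jars in 12 (36.4% of all probe sets).

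How far the calls depended on single arrays differed between members. Without the array of no gold replicate 1, 9 replication-linked probe sets and 1 variant fell and none rose (11.9% of all probe sets fell and 9.46% rose), and the medians were -0.67 and -0.018. Of all 22746 probe sets, 2480 were lower with all arrays and 1206 in every fit with a single array left out. Of the 11 histone probe sets called lower, 3 passed whichever array was left out, namely H3.1 264262_at and 250434_at and the H2B gene AT2G28720. The other 8 all lost their call without gold replicate 3, so that 3 replication-linked probe sets were lower without it (5.53% of all probe sets). Without gold replicate 2 there were 6 (7.14% of all probe sets), and without no gold replicate 2 there were 5 (6.88% of all probe sets). HTB2 had limma adjusted p = 0.0667 without gold replicate 3 and 0.055 without no gold replicate 2. The calls also rested on limma's pooling of the spread: with each probe set's own variance alone none of the 11 passed (4.46% of all probe sets fell), and none was shown to fall by more than 1.5-fold (limma treat; 3.33% of all probe sets fell). At an unadjusted p under 0.05, the first test had 12 replication-linked probe sets and 1 variant lower (15.5% of all probe sets), and limma treat had 5 and 0 (6.51% of all probe sets). The H3.3 probe set 252824_at lost its call when any array other than replicate 1 of either group was left out (highest limma adjusted p = 0.112).

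By position, several histone genes lie next to each other. In the TAIR10.1 gene table the H3.1 loci AT5G10390 and AT5G10400 are direct neighbours, as are the H3.3 loci AT4G40030 and AT4G40040. The H2B gene AT2G28720 is separated by 2 genes from the H4 locus HIS4. The H2B gene AT5G02570 is the direct neighbour of HTA12 (AT5G02560), an H2A gene without a probe set here. Gene spans were 644 to 1131 bp for H4, 723 to 833 bp for H3.1, 522 to 1286 bp for H2B and 1166 to 1797 bp for H3.3, so that H3.3 and H2B spans overlapped.

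Other genes of chromatin and the cell cycle were thinly covered: 17 of 79 listed genes in 7 lists had a probe set named for that gene alone, and 2 lists, of regulators of entry into DNA synthesis and of the DNA damage response, had none. Of the 17, 5 fell, none rose and 12 did not pass, where 10.9% of all probe sets fell and 9.32% rose. The lists were chosen with earlier results of these data known, so these counts are not independent evidence. None of the 17 rose at an unadjusted p under 0.05 in limma (13.6% of all probe sets did), and 4 rose with array quality weights (23.9% of all probe sets). Of 8 other measured histones 1 fell, a share near the 10.9% of all probe sets, namely the linker histone gene HIS1-3 (H1.3), a stress-responsive linker variant. It had centred log2 values of -0.36, -0.27 and -0.54 on the gold arrays, against 1.27, 0.27 and 1.31 on the no gold arrays. Its no gold jars were widely spread, with no gold replicate 2 low, and the change was -1.34 ± 0.29 (SE, n = 3 and 3; limma adjusted p = 0.0142). Without no gold replicate 3 or gold replicate 3 it did not pass (limma adjusted p up to 0.0688).

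CENH3, the H3 variant of centromeres that is expressed in dividing cells, was at -0.67 ± 0.24 and did not pass (limma adjusted p = 0.0945). Its centred values were -0.084, -0.83 and -0.25 on the gold arrays, against 0.084, 0.59 and 0.17 on the no gold arrays. The linker histone loci AT1G06760 and AT2G30620 were at 0.11 and -0.19. The H3 gene of male gametes, MGH3, was at 0.19, and the H3-related loci AT1G13370, AT1G75600 and AT5G12910 were at 0.44, 0.27 and -0.16, without passing.

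For DNA replication, 20 genes were listed and 2 measured, of which 1 fell, where 10.9% of all probe sets fell. MCM7 (PROLIFERA), a subunit of the helicase that opens DNA at replication forks, had values of -0.26, -0.25 and -0.32 on the gold arrays, against 0.36, 0.60 and 0.25 on the no gold arrays. The gold arrays were close together and apart from all no gold jars, and the change was -0.68 ± 0.16 (limma adjusted p = 0.0196). It lost its call when gold replicate 2, gold replicate 3 or no gold replicate 2 was left out (highest limma adjusted p = 0.094). ICU2, the catalytic subunit of DNA polymerase alpha, was at 0.21 ± 0.24 (limma adjusted p = 0.64), with no gold replicate 1 at -0.74 and the other 5 arrays between -0.0071 and 0.067.

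All 3 measured mitosis genes fell, where 10.9% of all probe sets fell. This list, too, was chosen with earlier results of these data known. The log2 changes were -1.47 ± 0.28 for AUR2, -1.45 ± 0.25 for TOPII and -0.91 ± 0.16 for AUR1. Each passed whichever array was left out, where 1206 of all 22746 probe sets were lower in every such fit. AUR1 and AUR2 encode Aurora kinases that act on chromosomes in mitosis, and TOPII encodes the topoisomerase that untangles DNA. The centred values of TOPII were -0.48, -0.53 and -1.31 on the gold arrays, against 0.81, 0.75 and 0.48 on the no gold arrays. No gold replicate 1 was the highest array for TOPII alone among the 3, and the lowest no gold jar for AUR2.

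Histone chaperones and deposition factors did not pass. ASF1A and ASF1B, chaperones that hand H3 and H4 to the assembly factors, were at 0.54 ± 0.28 and -0.063 ± 0.17, and for ASF1A the value came largely from no gold replicate 1, which read -1.11. ATRX, a chromatin remodeller linked to H3.3, was at 0.092 ± 0.17, and SWC2, a subunit of the complex that inserts H2A.Z, at 0.23 ± 0.18. The CAF-1 subunits and HIRA are not covered.

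**Figure D4:**
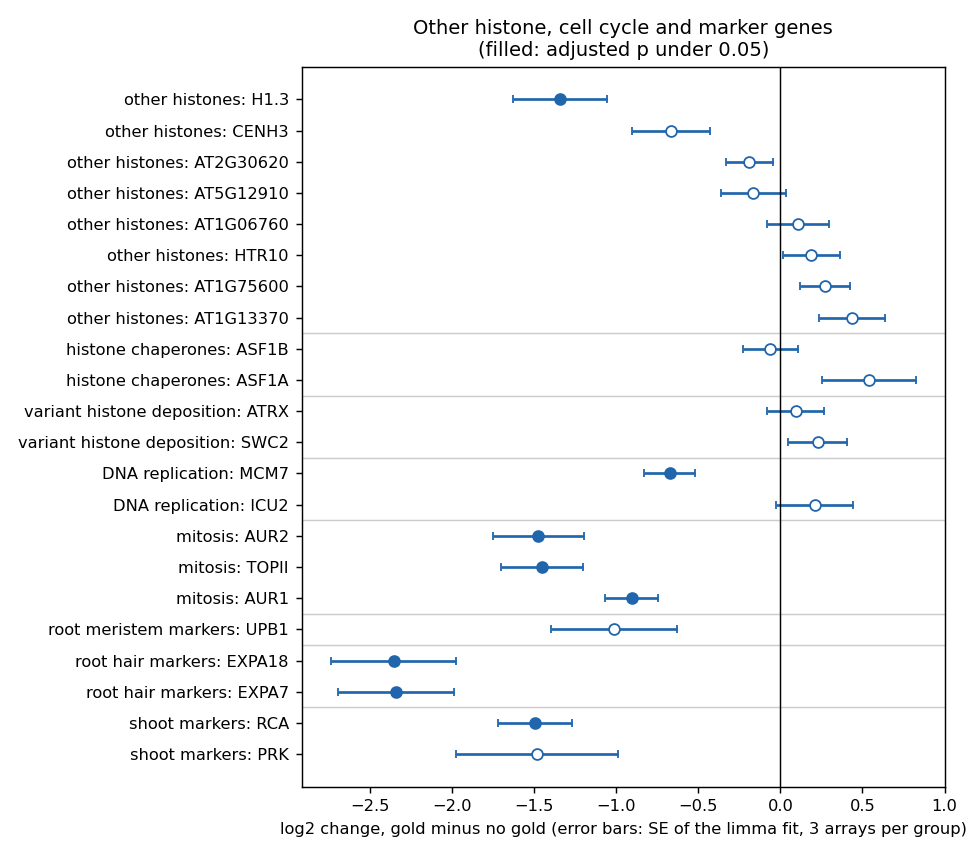
Log2 change, gold minus no gold, with the SE of the limma fit (3 arrays per group), of the measured genes of the other histone, cell cycle and marker lists, filled where the adjusted p was under 0.05. The 3 mitosis genes lie between -1.47 and -0.91, while chaperones and deposition factors lie between -0.063 and 0.54.

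Markers of cell types that could move with the histones were few. Of 5 genes listed for the root meristem only UPB1 was measured, at -1.01 ± 0.38 without passing (limma adjusted p = 0.112). UPB1 is a regulator of the passage from division to elongation, so its change is not a measure of dividing cells. Without no gold replicate 1 the UPB1 change was -0.63, and with array quality weights UPB1 fell (limma adjusted p = 0.00145). Both measured root hair genes fell (10.9% of all probe sets did), with log2 changes of -2.36 ± 0.38 for EXPA18 and -2.34 ± 0.35 for EXPA7. The marker lists were also chosen with earlier results of these data known. Of 2 measured shoot genes RCA fell by 1.49 ± 0.23 and PRK was at -1.48 ± 0.49 (limma adjusted p = 0.0737). PRK was at -0.86 without no gold replicate 2, and it fell without no gold replicate 3 (limma adjusted p = 0.0375) and with array quality weights (limma adjusted p = 0.00187). Summed levels of these lists cannot be given from centred values, and their part in the histone changes was not tested.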

How the data were processed

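Total RNA from roots was amplified, biotin-labelled with the MessageAmp II kit and hybridised to ATH1 arrays, per the labels' protocols. The deposited values of 22810 probe sets are log2 signals (taken to be of base 2) centred by the authors: the median of the 6 arrays is 0 for each probe set, within 1e-06. How probes were summarised and arrays scaled, and the genome build, are not given in the sources used.

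The test covered 22746 probe sets, all but 64 controls, with limma 3.58.1 under R 4.3.3. It used lmFit and eBayes, two-sided, gold minus no gold, threshold 0.05, without further scaling or a filter. The procedure was also run on simulated data with known changes and equal spread on all arrays. That run cannot show how it behaves with an array such as no gold replicate 1. Jars are separate per the design text. Replicate numbers are not known to pair jars.

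Genes were assigned to probe sets by GEO's platform annotation (13513 probe sets with 1 gene, 503 with several, 8730 unnamed here) and matched to the TAIR10.1 gene table, which served for names, spans and neighbours. Division into replication-linked and variant histones follows general knowledge of the family. Members and lists were chosen with earlier results of these data known. Values on every array are given for the 2 largest and the smallest change in each histone class, and for all members of classes with up to 3 probe sets; of each other list, up to 4 passing members are named, or the one with the lowest p. Other members are named to account for all of them, and TOPII, CENH3 and MCM7 arrays are shown for reading beside the histones. Alternatives were a replicate block, each array left out, quantile normalization, centring of arrays on their medians, array quality weights, a minimum of 2-fold, treat at 1.5-fold, an ordinary test per probe set, and other rules for shared probe sets. Python 3.11.15 (pandas 2.3.3, numpy 2.4.6, matplotlib 3.10.9) was used for tables and plots.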

Additional observations from a re-analysis of the deposited data

How the results depend on the processing

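All settings were planned. Array median centring and quantile normalization kept every histone call. Array quality weights (highest for gold replicate 3, at 15.8, and lowest for no gold replicate 1, at 0.155) gave 17 lower replication-linked probe sets, 1 higher variant, 4 higher list genes, and 6366 lower and 5442 higher probe sets in all. Limma treat at 1.5-fold gave 0 lower replication-linked, 0 lower variant and 0 lower list genes, with 757 lower and 968 higher probe sets. The ordinary test gave 0, 0 and 2, with 1015 lower and 922 higher. A minimum of 2-fold gave 5, 0 and 3, with 1456 lower. With single arrays left out there were 3 to 10 lower replication-linked probe sets, 0 to 1 variants, 3 to 5 list genes, and 1258 to 2717 lower and 1262 to 2432 higher probe sets, the lowest without gold replicate 3. Probe sets named for 1 gene alone gave 3 lower replication-linked probe sets and 0 variants, since all H3 and H4 probe sets are shared. For the other settings the cause was not tested. The replicate number as a block gave 10 lower replication-linked and 0 lower variant probe sets: H4 251924_at, H3.3 252824_at and MCM7 lost their calls, and H3.1 250433_at, UPB1 (limma adjusted p = 0.0228) and PRK (0.0256) gained one. Deviations from the group means correlated at -0.11, -0.25 and 0.28 between arrays of the same number, and some arrays correlated better with another number than with their own. Counting H2A.X and H2A.W with the replication-linked class gave no value, as neither has a probe set.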
